A study of Homo sapiens with 8 samples.

Results

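The genes described here are 45 genes of the hypoxia response and of glycolysis, chosen by name: enzymes of the glycolytic pathway, genes of glucose and lactate transport and of flux control, other targets of hypoxia signalling, and the alpha subunits of the hypoxia-inducible factors, HIF1A and EPAS1. Probes were assigned to genes through their accession. At least 1 of the 41000 probes was found for 44 of the 45 genes, with 71 probes in all, and 17240 genes of the whole array had a probe in this way. KDM4B had none by this route. The 44 genes were 13 glycolytic enzymes, 6 genes of transport and control, 23 other hypoxia targets and the 2 alpha subunits. Where a gene had several probes, its value is that of the brightest tested probe. All 44 genes could be tested in both experiments.

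Gene expression was compared in the cell line CAPAN-2, which was established from a human pancreatic adenocarcinoma, on 8 Agilent 2-colour arrays, to find genes that depend on the receptor ErbB2 or on the mucin MUC4. For ErbB2-KD, cells carried a stably transfected plasmid with an shRNA against ErbB2 under puromycin selection, and clones EV7, EV12, EV9 and EV18 were on arrays 1 to 4 in this order, each against a pool of 4 NT clones with the empty vector. For MUC4-KD, cells were infected with a pRetroSuper retrovirus directed at MUC4 and selected with G418, and 4 arrays compared the RNA labelled MUC4-KD with a pool of 4 Mock clones that carried the empty vector. The labels do not name the MUC4-KD clones, and whether any of them was on more than 1 array cannot be told; the n of 4 follows the study's methods. Every sample is a clone grown out of limiting dilution, so on a single array the features of a clone and the effect of its vector cannot be told apart. Each pool counts as 1 control sample, and the spread between control clones is in no test. In bulk RNA, fewer cells of a type and less RNA per cell cannot be told apart either.

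When oxygen is short, the prolyl hydroxylases of the EGLN family no longer mark the HIF alpha subunits for destruction by the VHL ubiquitin ligase, and the subunits join ARNT on DNA. Their targets include most enzymes that take glucose to lactate, glucose and lactate transporters, regulators of flux such as PFKFB3 and PDK1, and genes of angiogenesis, mitophagy, collagen modification and feedback. The same genes also answer to growth factor signalling and to MYC in tumour cells, and HIF1A is controlled mainly at the level of its protein. Pancreatic adenocarcinoma is known as a poorly oxygenated tumour that relies heavily on glycolysis.

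A log2 ratio is given as labelled knockdown over labelled control throughout, and a gene is called when its adjusted p from limma, over all tested probes of an experiment, is under 0.05. For the targeted gene of ErbB2-KD, ERBB2, probe A_23_P89249 gave log2 ratios of -0.58, -0.32, -0.33 and -0.38 on the 4 ErbB2-KD arrays, lower on all of them (limma adjusted p = 0.145). A second probe of the gene, A_24_P284420, lay near 0, at 0.04, 0.03, 0.06 and 0.01 (limma adjusted p = 0.897). Neither probe was called. MUC4 had 4 tested probes in the RNA labelled MUC4-KD, all with means above 0, and 2 of them were called. The brightest, A_24_P239176, had log2 ratios of 0.47, 0.39, 0.28 and -0.05 (limma adjusted p = 0.167), and A_24_P239177 had 0.71, 0.56, 0.41 and -0.04 (limma adjusted p = 0.0984). A_24_P239183 had 1.71, 1.96, 1.58 and 0.10 (limma adjusted p = 0.0355), and A_24_P208825 had 1.71, 2.34, 2.21 and 1.08 (limma adjusted p = 0.00804). Both called probes were higher on all 4 arrays, which goes against the label, while the other two lay just under 0 on array 4. The study reported MUC4 as lower in MUC4-KD, opposite to the sign of these called probes, and the RNA is therefore called labelled MUC4-KD. Apart from MUC4 and CA9, given below, the signs of this experiment were not compared with those of the study. All 7 markers of ductal epithelium (KRT7, KRT8, KRT18, KRT19, EPCAM, CDH1 and MUC1) were well above background on all 8 arrays in both channels. Of 5 fibroblast markers with a probe, none was above background on every array and 3 were above it on none, while CD14 and CD68, from a list of 4 leukocyte markers, were above it everywhere. No spot was saturated.

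In the RNA labelled MUC4-KD the hypoxia and glycolysis genes were mostly higher than in the RNA labelled Mock. Of the 44 genes, 29 passed the test (65.9%), 28 of them higher and 1, EPAS1, lower. Over all 25047 tested probes, 20.5% were called and 12% were called higher. The mean was above 0 for 39 of the 44 genes, and 32 were higher on 4 of 4 arrays, where the share over all tested probes was 27.4%. Counted by probe, 43 of 69 tested probes of these genes were called, 41 of them higher. The change was at least 2-fold for 20 of the 28 genes called higher.

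By role, of the 23 other hypoxia targets, 17 were called, all higher, and 19 were higher on every array. Of the 13 glycolytic enzymes, 7 were called higher, and of the 6 genes of transport and control, 3. The median log2 ratio of the other targets was 1.05, 1.29, 1.11 and 1.14 on arrays 1 to 4, with 1.16 over the genes' means. For the glycolytic enzymes it was 0.66, 0.64, 0.55 and 0.25, with 0.50 over the means. The other targets therefore had the higher median on 4 of 4 arrays, by 0.40 to 0.89. Over all tested probes the median lay between -0.01 and 0.03 on the 4 arrays. The plot of group medians sets these arrays beside those of ErbB2-KD.

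**Figure D1:**
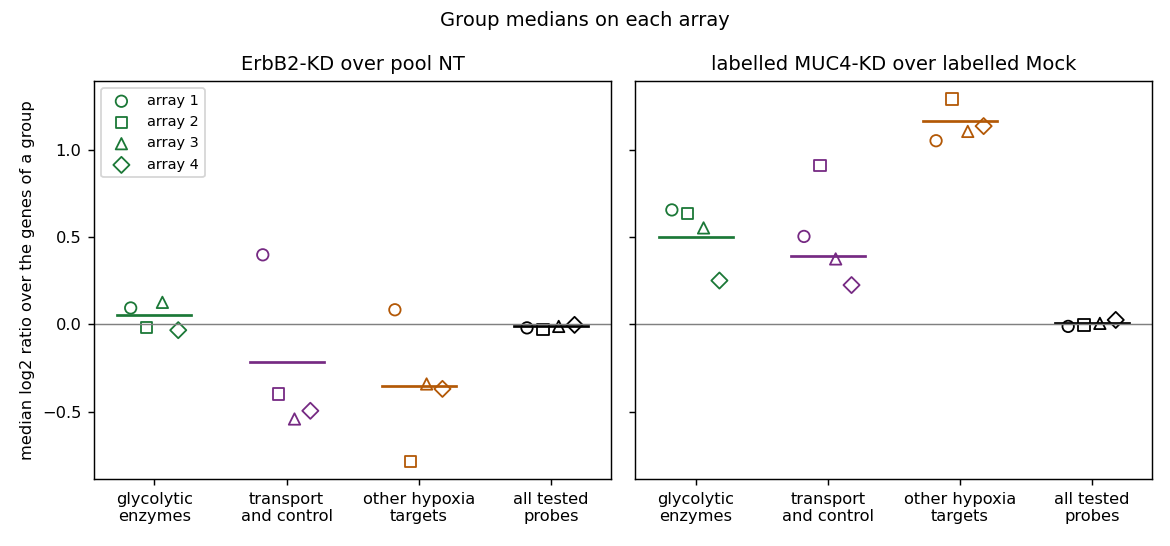
Median log2 ratio (y axis) over the 13 glycolytic enzymes, the 6 genes of transport and control, the 23 other hypoxia targets and all tested probes (x axis), with 1 symbol per array and a line at the median of the genes' means. In labelled MUC4-KD the 4 arrays put the other targets between 1.05 and 1.29, above the glycolytic enzymes at 0.25 to 0.66. In ErbB2-KD the medians of the other targets run from -0.78 to 0.08 and those of the enzymes stay between -0.03 and 0.13.

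The letters that the HIF complexes recognise, ACGTG or GCGTG, were looked for in the 250 bases before each RefSeq gene start (GRCh38.p14), on both strands, so that CACGT and CACGC count as well, with overlapping matches merged into 1 site. A window was found for 39 of the 44 genes, with 66 windows in all since some genes have several starts. At least 1 site was in 47 of the 66 windows (71.2%), against 43.2% of all 35116 windows, and 2 or more sites were in 37.9% against 16.2%. Base composition moved with this: the median GC content was 68.4% in the members' windows and 58.0% in all, and its part was not tested. Since the members were chosen by name as hypoxia and glycolysis genes, their excess over all windows is no result of these arrays. Among 25 genes called higher in labelled MUC4-KD, 30 of 34 windows held a site, and among 14 other members 17 of 32. The median GC content was 68.8% and 66.0% in these sets, and a gene with several starts counts once per window. Stretches around the sites, on the strand of the gene and with the sites in capitals, are printed from a gene's most upstream window. First come the 6 genes called higher with the largest ratios among those with at least 1 site there. Genes with 0 sites there could not be shown, such as P4HA2, PDK1 and TPI1, which were called higher. VLDLR and HK2 follow, which were not called although their windows hold 4 and 3 sites.
ANGPTL4, chr19:8363905-8363945, plus strand: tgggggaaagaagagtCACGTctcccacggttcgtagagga
LOX, chr5:122078277-122078464, minus strand: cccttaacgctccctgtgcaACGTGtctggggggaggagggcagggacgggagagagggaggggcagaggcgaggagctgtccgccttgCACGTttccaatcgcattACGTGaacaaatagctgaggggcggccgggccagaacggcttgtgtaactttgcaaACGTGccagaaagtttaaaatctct
BNIP3, chr10:131982003-131982086, minus strand: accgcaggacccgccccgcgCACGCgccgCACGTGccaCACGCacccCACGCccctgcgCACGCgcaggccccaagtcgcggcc
LDHA, chr11:18394358-18394514, plus strand: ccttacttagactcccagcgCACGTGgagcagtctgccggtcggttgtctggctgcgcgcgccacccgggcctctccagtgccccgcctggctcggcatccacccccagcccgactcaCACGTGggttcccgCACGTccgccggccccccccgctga
ANKRD37, chr4:185396659-185396722, plus strand: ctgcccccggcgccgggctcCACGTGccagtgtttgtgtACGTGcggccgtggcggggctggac
P4HA1, chr10:73096928-73096972, minus strand: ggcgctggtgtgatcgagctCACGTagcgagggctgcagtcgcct
VLDLR, chr9:2621606-2621780, plus strand: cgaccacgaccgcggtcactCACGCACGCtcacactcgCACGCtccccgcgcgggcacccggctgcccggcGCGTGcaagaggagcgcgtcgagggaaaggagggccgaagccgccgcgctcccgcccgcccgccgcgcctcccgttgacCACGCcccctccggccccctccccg
HK2, chr2:74833878-74834103, plus strand: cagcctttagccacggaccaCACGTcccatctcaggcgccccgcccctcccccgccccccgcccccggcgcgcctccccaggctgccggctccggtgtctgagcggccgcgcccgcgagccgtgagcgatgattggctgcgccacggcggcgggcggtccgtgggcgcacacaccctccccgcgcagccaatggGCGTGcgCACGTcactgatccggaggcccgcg
The printed BNIP3 stretch holds 5 sites and that of LOX 4, whereas ANGPTL4 and P4HA1 have 1 each. A match of letters is a description of the sequence and not a binding site.

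Among the glycolytic enzymes in labelled MUC4-KD, LDHA, the subunit of lactate dehydrogenase that favours the conversion of pyruvate to lactate, had log2 ratios of 2.02, 2.18, 1.98 and 2.56 on arrays 1 to 4, a 4.54-fold higher mean (limma adjusted p = 0.00232). It was the most changed of the 13 enzymes, and no array came below 1.98. ENO2, the neuronal enolase, had ratios of 1.81, 1.85, 1.30 and 0.51 (mean 1.37 ± 0.62, SD, n = 4; limma adjusted p = 0.0189). ALDOC, the brain-type aldolase, had 1.95, 0.75, 1.77 and 0.32 (mean 1.20 ± 0.79, SD, n = 4; limma adjusted p = 0.0405). Both were highest on array 1 or 2 and lowest on array 4.

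PGK1, which makes the first ATP of the pathway, was at 0.92, 0.75, 1.04 and 0.75 (limma adjusted p = 0.00897). GPI, which turns glucose 6-phosphate into fructose 6-phosphate, was at 0.97, 0.63, 1.03 and 0.74 (limma adjusted p = 0.0117). These genes were 1.82-fold and 1.79-fold higher, with little spread between arrays. TPI1, the isomerase of the triose phosphates, had ratios of 0.72, 0.64, 0.37 and 0.25 (limma adjusted p = 0.0434), and GAPDH, the oxidising step that follows it, 0.66, 0.66, 0.48 and 0.20 (limma adjusted p = 0.0412). The change of TPI1 and GAPDH was 1.41-fold and 1.42-fold, and array 4 was again the lowest. GAPDH was the gene to which the study normalised its qRT-PCR.

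The other 6 enzymes did not pass. HK1, the hexokinase expressed in most tissues, had ratios of 0.19, 0.21, 0.59 and 1.15, which were above 0 on all 4 arrays but with a limma adjusted p of 0.0880. PGAM1, the phosphoglycerate mutase, was at 0.58, 0.45, 0.55 and 0.08 (limma adjusted p = 0.0651). HK2, the hexokinase known for its induction in tumours, was above 0 only on array 2, with -0.09, 0.71, -0.25 and -0.05. The means of ALDOA, ENO1 and PFKP, broadly expressed forms of aldolase, enolase and phosphofructokinase, were 0.02, 0.03 and -0.04, and PFKP stayed within -0.09 and 0.02. The aldolase and enolase steps thus each had an isoform that was called (ALDOC, ENO2) and an isoform near 0 (ALDOA, ENO1). No gene's level is compared with that of another here, since a probe's brightness does not measure that.

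Among the genes of transport and control, the flux regulators were higher and the transporters were not called. PFKFB4, a bifunctional enzyme that sets the level of fructose 2,6-bisphosphate, had ratios of 1.62, 1.77, 1.67 and 0.76 (mean 1.45 ± 0.46, SD, n = 4; limma adjusted p = 0.00964). PDK1, the kinase that shuts pyruvate dehydrogenase off, had 1.10, 1.19, 1.18 and 0.85 (limma adjusted p = 0.00585). PFKFB3, which drives phosphofructokinase through the same metabolite as PFKFB4, had 0.75, 0.88, 0.59 and 0.25 (limma adjusted p = 0.0325). All 3 were higher on every array and lowest on array 4. The glucose transporter SLC2A1, a standard hypoxia target, had ratios of -0.34, 0.24, -0.29 and 0.20, and SLC2A3, a transporter of high affinity, -0.10, 0.42, 0.16 and 0.04. SLC2A3 was well above background in the Mock RNA on 2 of the 4 arrays. The lactate exporter SLC16A3 had 0.26, 0.94, -0.08 and -0.45. For these transporters the arrays lay on both sides of 0.

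The plot of all members by array shows how the 4 arrays of each gene scatter in both experiments.

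**Figure D2:**
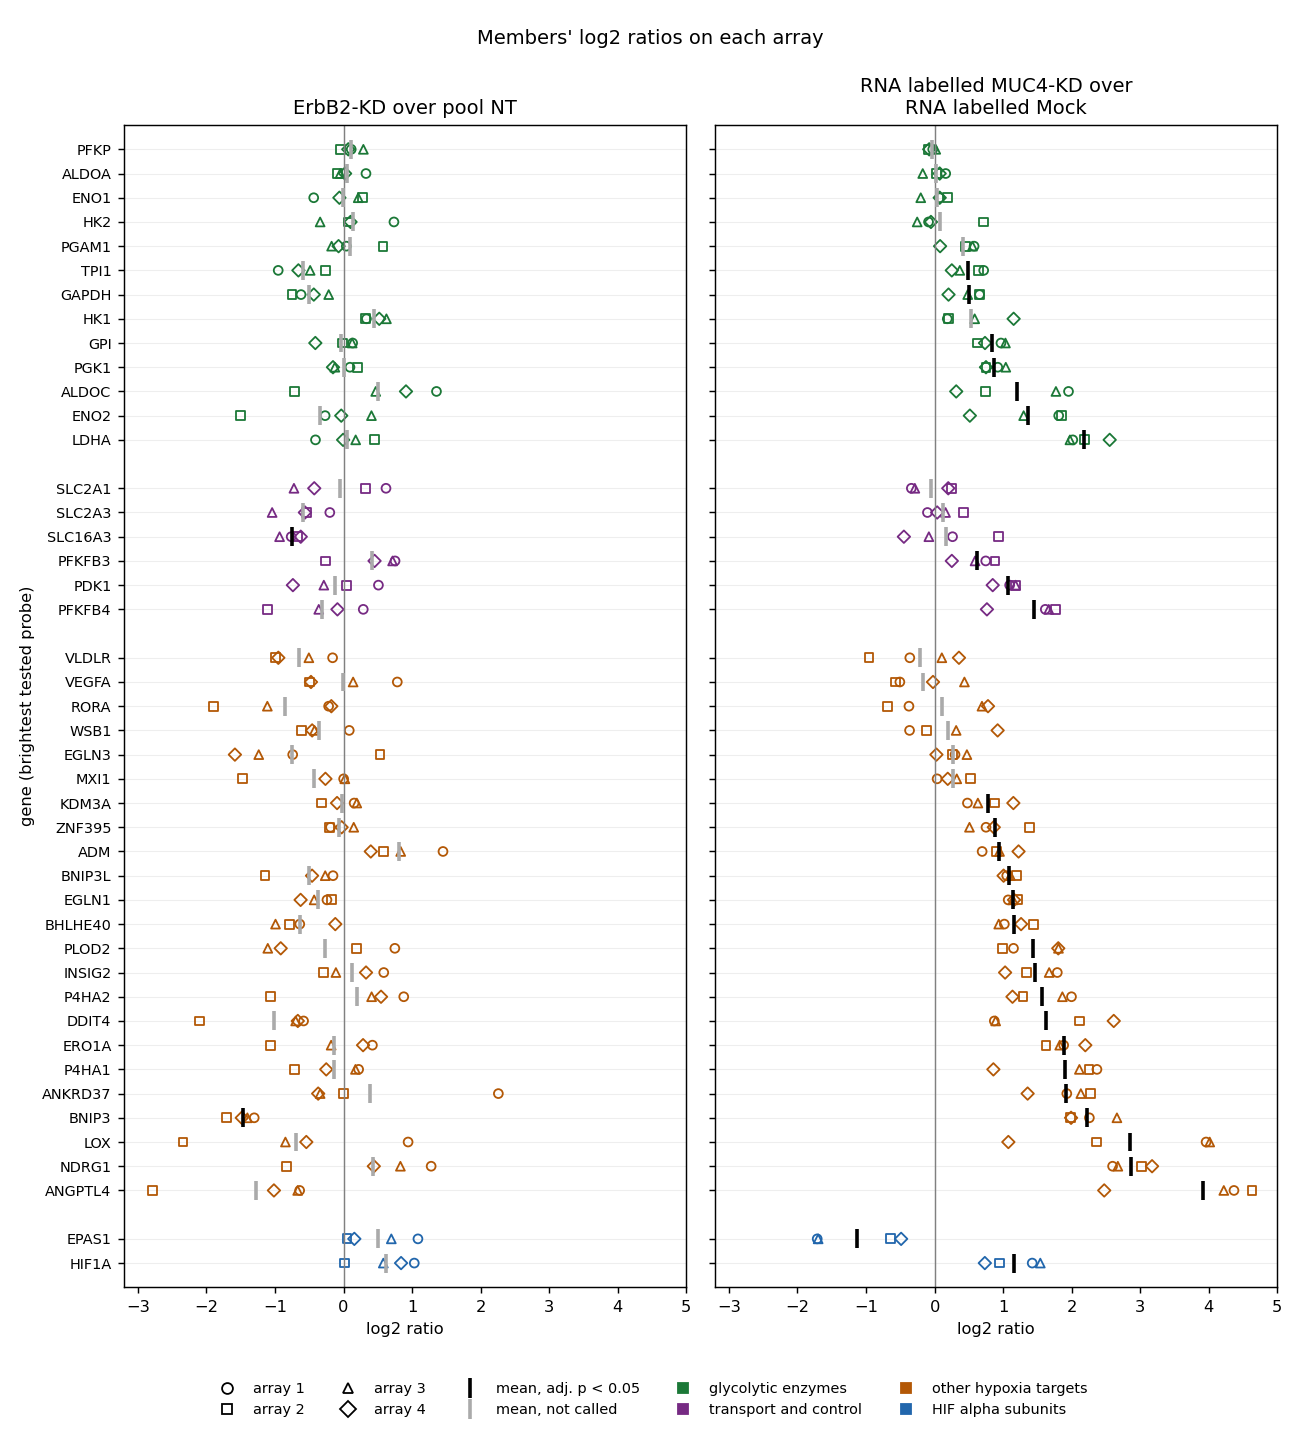
Log2 ratio on each array (x axis; 1 symbol per array) for the 44 genes (y axis, by role and by their mean in labelled MUC4-KD), on the left for ErbB2-KD and on the right for labelled MUC4-KD. A vertical tick marks the mean of 4 arrays, black where the adjusted p is under 0.05 (2 genes on the left, 29 on the right) and grey otherwise. On the left the symbols of most genes lie on both sides of 0, and on the right those of 32 genes lie above 0.

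The largest ratios of all 44 genes belonged to other hypoxia targets. ANGPTL4, a secreted inhibitor of lipoprotein lipase, had log2 ratios of 4.37, 4.63, 4.22 and 2.48, a 15.2-fold higher mean (3.92 ± 0.98, SD, n = 4; limma adjusted p = 0.00405). NDRG1, a stress-induced gene linked to growth arrest and differentiation, had 2.60, 3.02, 2.67 and 3.17, 7.29-fold higher on average (limma adjusted p = 0.00138). LOX, which cross-links collagen, had 3.96, 2.37, 4.01 and 1.08 (2.85 ± 1.41, SD, n = 4; limma adjusted p = 0.0194). The arrays of NDRG1 lay close together, whereas LOX spanned almost 3 log2 units and was lowest on array 4, as was ANGPTL4. LOX and ANGPTL4 were the 2 members with a span of over 2 log2 units in this experiment.

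BNIP3, a mitochondrial receptor for mitophagy, had ratios of 2.26, 1.98, 2.66 and 1.99 (4.67-fold, limma adjusted p = 0.00232). Its relative BNIP3L had 1.05, 1.19, 1.11 and 1.01 (2.13-fold, limma adjusted p = 0.00458). ERO1A, the oxidase that drives disulfide formation in the endoplasmic reticulum, had 1.88, 1.63, 1.83 and 2.20 (3.69-fold, limma adjusted p = 0.00232). None of these genes had an array below 1.01, and their SDs were between 0.08 and 0.32.

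Of the members that act on collagen before its secretion, P4HA1, a catalytic subunit of collagen prolyl hydroxylase, had log2 ratios of 2.37, 2.25, 2.11 and 0.86 (limma adjusted p = 0.0112). P4HA2, the alternative subunit, had 2.00, 1.29, 1.86 and 1.14 (limma adjusted p = 0.00685). PLOD2, a lysyl hydroxylase, had 1.15, 0.99, 1.81 and 1.80 (limma adjusted p = 0.00861). The mean changes were 3.73-fold, 2.97-fold and 2.71-fold, and P4HA1 had its low array in number 4.

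Of the feedback and chromatin genes, EGLN1, the main hydroxylase of the alpha subunits, had ratios of 1.07, 1.21, 1.14 and 1.16 (1.15 ± 0.06, SD, n = 4; limma adjusted p = 0.00393), with the smallest SD of all called members. EGLN3, the family member known as the most inducible, was not called, at 0.30, 0.26, 0.47 and 0.03 (limma adjusted p = 0.148). KDM3A, a histone demethylase, had 0.48, 0.87, 0.63 and 1.15 (limma adjusted p = 0.0207). ANKRD37, an ankyrin repeat protein of unclear function, had 1.93, 2.27, 2.13 and 1.36 (3.79-fold, limma adjusted p = 0.00404). EGLN1 and EGLN3 were thus both above 0 on 4 arrays, with means of 1.15 and 0.26.

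Signalling and transcription genes followed. DDIT4, an inhibitor of mTORC1, had ratios of 0.87, 2.12, 0.89 and 2.61 (1.62 ± 0.88, SD, n = 4; limma adjusted p = 0.0256), with arrays 1 and 3 below arrays 2 and 4. INSIG2, which retains SREBP precursors in the endoplasmic reticulum, had 1.79, 1.34, 1.67 and 1.03 (limma adjusted p = 0.00588). BHLHE40, a transcriptional repressor of the clock, had 1.02, 1.44, 0.94 and 1.26 (limma adjusted p = 0.00628). Their fold changes were 3.08, 2.75 and 2.24. ADM, the vasodilating peptide adrenomedullin, had 0.69, 0.90, 0.95 and 1.23 (1.92-fold, limma adjusted p = 0.0100), and ZNF395, a zinc finger factor, 0.75, 1.39, 0.51 and 0.86 (1.84-fold, limma adjusted p = 0.0218). Both stayed above 0.5 on every array.

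The 6 other targets that did not pass were EGLN3, VEGFA, MXI1, VLDLR, RORA and WSB1. VLDLR, a lipoprotein receptor, had the lowest mean of all targets, with ratios of -0.36, -0.96, 0.11 and 0.36. WSB1, a ubiquitin ligase adaptor, had -0.37, -0.11, 0.31 and 0.92, and RORA, a nuclear receptor, -0.37, -0.69, 0.69 and 0.78. In these genes arrays 1 and 2 were below 0 and arrays 3 and 4 above it, which is also the split by dye, since the labelled knockdown was in Cy3 on arrays 1 and 2 and in Cy5 on arrays 3 and 4. MXI1, an antagonist of MYC, stayed between 0.04 and 0.53.

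The alpha subunits moved in opposite directions. HIF1A had log2 ratios of 1.42, 0.95, 1.54 and 0.73 (2.24-fold higher, limma adjusted p = 0.0120). EPAS1, which encodes HIF-2 alpha, had -1.71, -0.64, -1.70 and -0.49 (2.20-fold lower, limma adjusted p = 0.0325). Arrays 1 and 3 gave the larger change of both genes and arrays 2 and 4 the smaller. A difference in transcript says nothing of the amount of either protein.

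These calls depended on the normalisation and on single arrays. With each array centred on its median in place of loess, 0 of the 44 genes were called and only 1 probe of all tested (2175 at an unadjusted p under 0.05), although the medians were then 1.32 for the other targets and 0.71 for the glycolytic enzymes. The count was 14 without array 1, 18 without array 2, 4 without array 3 and 30 without array 4. Over all tested probes these fits called 584 of 25108, 968 of 25231, 155 of 25219 and 9622 of 26639. By the methods' t-test with adjustment the count was 2, and 106 probes of all tested passed. LDHA, NDRG1, BNIP3 and ERO1A were called by limma with any single array left out. With arrays 1 and 3 and arrays 2 and 4 averaged, in case each pair was 1 clone with its dyes swapped, 25 were called. Of all 25044 tested probes, 3596 were called in that way.

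In ErbB2-KD, 2 of the 44 genes were called, both lower, BNIP3 and SLC16A3. Over all 23869 tested probes, 1.43% were called and 0.884% were called lower. BNIP3 had log2 ratios of -1.30, -1.70, -1.40 and -1.48 on arrays 1 to 4 (-1.47 ± 0.17, SD, n = 4; limma adjusted p = 0.0141). SLC16A3, the lactate exporter, had -0.76, -0.67, -0.93 and -0.62 (-0.75 ± 0.14, SD, n = 4; limma adjusted p = 0.0426). In all 4 clones both genes were lower than in the NT pool. BNIP3 was the 1 member called in both experiments, in opposite directions as labelled. That opposition rests on the labels of the MUC4-KD arrays, which the called MUC4 probes go against. Both calls depended on single arrays. BNIP3 kept its call only without array 2 and had an adjusted p of up to 0.0999 by limma with another array left out. SLC16A3 lost its call whichever array was left out (limma adjusted p of up to 0.203). Over all tested probes these fits called 0 of 23996 without array 1 and 477 of 25402 without array 2. They called 3 of 24515 without array 3 and 30 of 24059 without array 4. Median centring left 0 of the 44 genes called by limma and 31 probes of all tested, with 2701 at an unadjusted p under 0.05. The methods' t-test with adjustment also called 0 of the 44 genes, with 3176 probes at an unadjusted p under 0.05.

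In ErbB2-KD none of the 13 glycolytic enzymes was called by limma, with HK1, TPI1 and GAPDH, 3 genes, at an unadjusted p under 0.05. Over all tested probes of this experiment the share at that threshold was 18%. The enzymes' median was 0.09, -0.02, 0.13 and -0.03 on arrays 1 to 4. TPI1 had ratios of -0.95, -0.26, -0.49 and -0.66 (limma adjusted p = 0.122) and GAPDH of -0.62, -0.75, -0.22 and -0.43 (limma adjusted p = 0.131), lower on every array without passing. LDHA, the most changed enzyme of the other experiment, had -0.41, 0.45, 0.18 and -0.01. On the upper side, HK1 had 0.33, 0.32, 0.63 and 0.52, above 0 in all 4 clones (limma adjusted p = 0.128), and HK2 had 0.74, 0.07, -0.34 and 0.10. ALDOC had 1.36, -0.72, 0.47 and 0.91 and ENO2 had -0.27, -1.50, 0.41 and -0.03. These isoforms were the enzymes that differed most between clones, with clone EV12 on array 2 the lowest of both.

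Of the other transport and control genes in ErbB2-KD, SLC2A3 had ratios of -0.20, -0.54, -1.04 and -0.56 (limma adjusted p = 0.142). SLC2A1 split the clones, with 0.62, 0.32, -0.72 and -0.43, and the split is again that of the dyes, since the knockdown RNA was in Cy5 on arrays 1 and 2 and in Cy3 on arrays 3 and 4. PFKFB3 was at 0.75, -0.26, 0.72 and 0.45, PFKFB4 at 0.29, -1.11, -0.36 and -0.09, and PDK1 at 0.51, 0.05, -0.29 and -0.74. Clone EV7 on array 1 had the highest ratio of 5 of the 6 genes of this role.

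The median of the other hypoxia targets in ErbB2-KD was 0.08 in EV7, -0.78 in EV12, -0.34 in EV9 and -0.37 in EV18, against -0.03 to 0.00 over all tested probes. The mean was below 0 for 18 of the 23 genes, and 8 were below 0 on all 4 arrays. The matching shares by sign were not counted over all tested probes. BNIP3 alone was called by limma, with 9 of the 23 at an unadjusted p under 0.05, where the share over all tested probes was 18%. EV12 gave the lowest ratio of 17 of the 23 genes and EV7 the highest of 16. Array 2 also had the brightest Cy3 and Cy5 signals of the 8 arrays, with medians of 248 and 593, against 100 to 119.5 and 158 to 201 on the rest, and the part of this in its low ratios was not tested. Without array 2 the median over the genes' means was -0.15, and with all arrays -0.35.

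ANGPTL4 shows the pattern of the clones, with log2 ratios of -0.64, -2.79, -0.67 and -1.02 (limma adjusted p = 0.160): all below 0, and EV12 far below the rest. DDIT4 was similar, with -0.58, -2.10, -0.70 and -0.67 (limma adjusted p = 0.143). LOX ran from 0.94 in EV7 to -2.34 in EV12, with -0.85 and -0.54 in EV9 and EV18, and was well above background in the knockdown RNA on 3 of the 4 arrays. NDRG1 had 1.28, -0.83, 0.83 and 0.44. For NDRG1 and LOX the clones lay on both sides of the pool.

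Other genes had their outlying clone elsewhere. ANKRD37 had a ratio of 2.26 in EV7 and 0.00, -0.34 and -0.37 in the others. EGLN3 was above 0 in EV12 only, with -0.74, 0.53, -1.24 and -1.58. ADM was above 0 in all clones, with 1.45, 0.58, 0.83 and 0.40 (limma adjusted p = 0.111), and was the member with the highest mean, 0.82. HIF1A had 1.03, 0.02, 0.58 and 0.84 and EPAS1 had 1.09, 0.05, 0.70 and 0.16, so that both alpha subunits were above 0 on every array without a call (limma adjusted p of 0.166 and 0.264).

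The difference between the experiments was tested gene by gene in 1 limma fit over the 8 arrays, as labelled MUC4-KD minus ErbB2-KD. It was called for 23 of the 44 genes, 22 with a higher value in labelled MUC4-KD and 1, EPAS1, with a lower value. Over all 25835 tested probes 9.91% were called and 6.49% were called higher. By role, the call was made for 14 of the 23 other targets, 6 of the 13 glycolytic enzymes, 2 of the 6 genes of transport and control, and EPAS1. All 23 were also called in labelled MUC4-KD.

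The widest difference was that of ANGPTL4, 5.20 (limma adjusted p = 0.00262), since its ratios were between 2.48 and 4.63 in labelled MUC4-KD and between -2.79 and -0.64 in ErbB2-KD. BNIP3 differed by 3.70 (limma adjusted p = 0.000188), with no array of one experiment within 3 log2 units of any array of the other. LOX differed by 3.55 (limma adjusted p = 0.0274), DDIT4 by 2.64 (0.0137) and NDRG1 by 2.44 (0.0100). Among the enzymes, LDHA differed by 2.13 (limma adjusted p = 0.00199), and TPI1 and GAPDH, with means below 0 in ErbB2-KD, by 1.08 and 1.01 (0.0127 and 0.0124). EGLN1 differed by 1.52 (limma adjusted p = 0.00173) and EPAS1 by -1.63 (0.0248).

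For 6 genes called in labelled MUC4-KD the difference did not pass. These were ADM (0.13), PFKFB3 (0.20), HIF1A (0.54), ALDOC (0.69), P4HA2 (1.38) and ANKRD37 (1.54), with limma adjusted p-values from 0.0608 for P4HA2 to 0.760 for ADM. All 6 had means above 0 in both experiments. For SLC16A3, called lower in ErbB2-KD, the difference of 0.92 had a limma adjusted p of 0.0630. Each slide held arrays of both experiments, and within slides 1, 2 and 3 the median difference was 1.31, 1.62 and 1.54 over the other targets and 0.51, 0.55 and 0.95 over the glycolytic enzymes. The count was 15 without MUC4-KD array 1 and 13 without MUC4-KD array 3, and 3 with median centring. Over all tested probes these fits called 815 of 25883, 634 of 25977 and 117 of 25835. With the sign of the labelled MUC4-KD arrays turned, an alternative chosen after the data were seen, 21 of the 44 genes were called, all of them lower, where 17.2% of all tested probes were called.

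**Figure D3:**
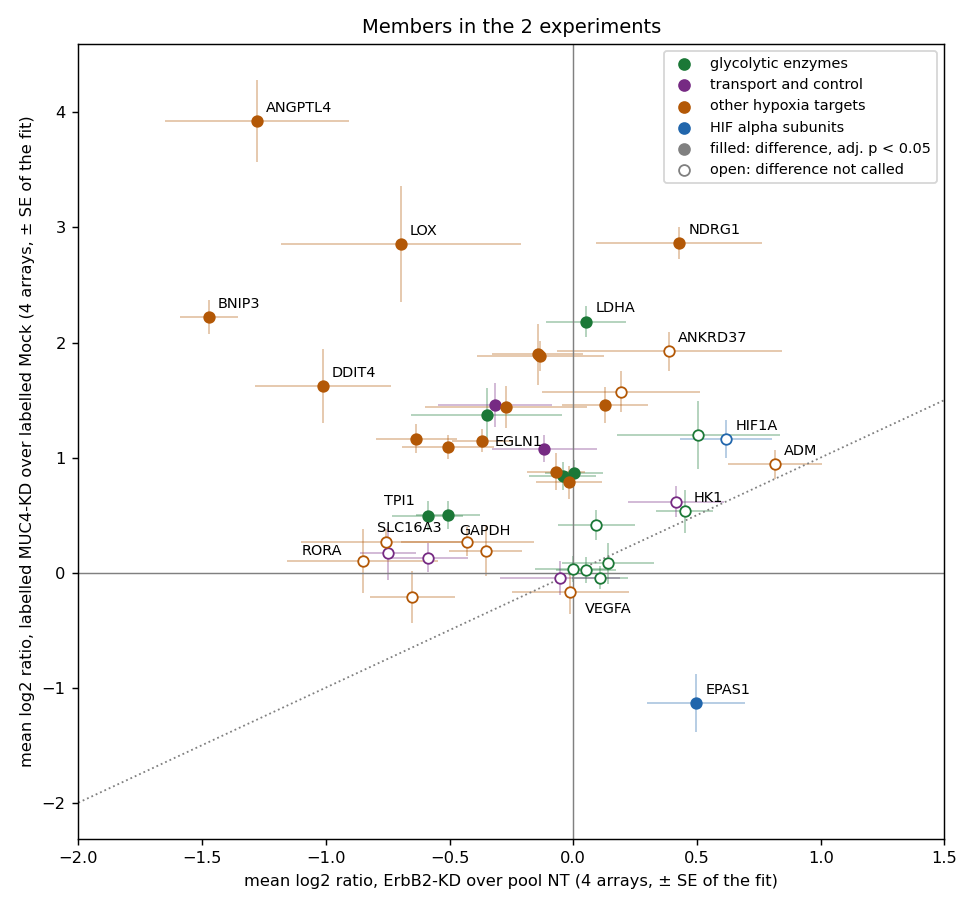
Mean log2 ratio of each of the 44 genes in ErbB2-KD (x axis) and in labelled MUC4-KD (y axis), with the standard error of the fit in each direction and a dotted line where both are equal. Filled points are the 23 genes whose difference was called: 22 lie above the dotted line, ANGPTL4 and BNIP3 farthest from it, and EPAS1 lies below it.

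Probes of the same gene did not always give the same picture. In labelled MUC4-KD, 16 genes had more than 1 tested probe, 41 probes in all. VEGFA, the main angiogenic factor, was the most divided. Its brightest probe had log2 ratios of -0.51, -0.56, 0.44 and -0.02 and was not called. Probe A_23_P81805 had 1.98, 1.67, 1.70 and 1.10 and was called higher (limma adjusted p = 0.00534), whereas A_24_P12401 had -0.51, -0.67, -0.30 and -0.35 and was called lower (limma adjusted p = 0.0423). The remaining VEGFA probe had a mean of -0.05. No single value can therefore be given for VEGFA.

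RORA had a second probe with ratios of 1.03, 0.74, 0.76 and 0.42, called higher (limma adjusted p = 0.0203), while the brightest was not called. ZNF395 had 2 probes called higher, with means of 0.88 and 0.74, and 2 near 0, at 0.02 and -0.07. The second NDRG1 probe was high on arrays 1 to 3, at 2.21, 2.50 and 2.50, and at 0.30 on array 4, where the brightest probe read 3.17. The 3 LDHA probes had means of 2.18, 1.99 and 2.32, all called, and the 3 PGK1 probes means of 0.87, 1.02 and 1.06, all called. Probes of ERO1A (1.88 and 0.76), INSIG2 (1.46 and 0.83) and EGLN1 (1.15 and 0.73) were all called higher with unequal means. PFKFB3 had 2 probes called higher, with means of 0.62 and 0.73, and 2 that did not pass, at 0.34 and 0.19. KDM3A had 2 called, at 0.78 and 0.62, and 1 that did not pass, at 0.39. The second probes of PDK1 (0.38), BNIP3L (0.76) and EPAS1 (-0.36) had the sign of the first and did not pass.

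**Figure D4:**
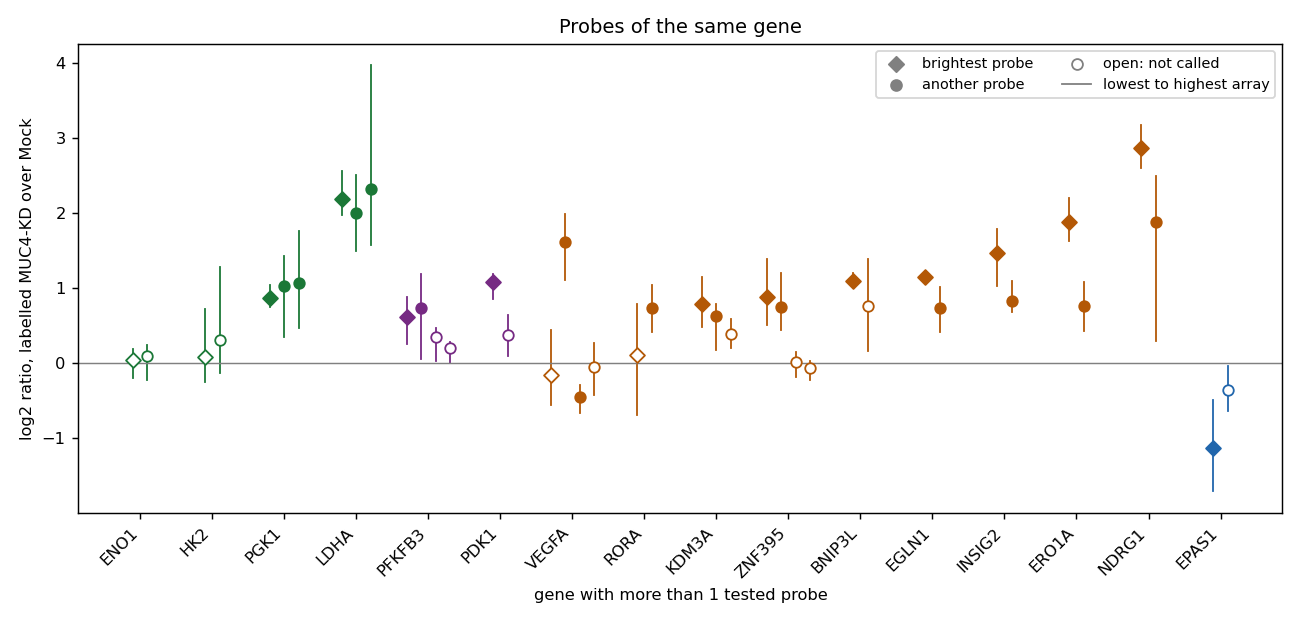
Mean log2 ratio in labelled MUC4-KD (y axis) of each tested probe of the 16 genes with more than 1 (x axis), with a line from the lowest to the highest of the 4 arrays. Diamonds are the brightest probes, which stand for the gene in the rest of the text, and open symbols are probes that were not called. The 4 VEGFA probes run from -0.46 to 1.61, and the 3 LDHA probes stay between 1.99 and 2.32.

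Further genes of the same pathways, none of them among the 45, were counted in the same way. In ErbB2-KD none was called by limma, of 11 tested genes of the HIF machinery, 15 of glycolysis and pyruvate use and 11 further hypoxia targets, and 1, 2 and 5 of them had an unadjusted p under 0.05, where the share over all tested probes was 18%. In labelled MUC4-KD, 6 of 13 further targets were called higher, where the share over all tested probes was 12%. They included CA9, a carbonic anhydrase of the cell surface, with log2 ratios of 2.45, 2.59, 2.63 and 0.40 (limma adjusted p = 0.0241), HILPDA, a lipid droplet protein, with a mean of 1.61, GBE1, the glycogen branching enzyme, with 1.50, and TMEM45A with 2.25. The others were NFIL3 and KDM4C, at 0.70 and 0.54. STC2, a secreted glycoprotein, was called lower, with -1.16, -1.81, -1.14 and -1.20 (limma adjusted p = 0.00680). In ErbB2-KD CA9 was at 2.95, 0.20, 3.65 and -0.09 and was not called (limma adjusted p = 0.271). By qRT-PCR the study reported CA9 as lower in MUC4-KD and higher in ErbB2-KD. It described the qRT-PCR result in MUC4-KD as matching its microarray data. The sign of CA9 in labelled MUC4-KD is thus opposite to that of the study.

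Of the 16 further glycolysis and pyruvate genes, 5 were called higher in labelled MUC4-KD and 1 lower. Over all tested probes 12% were called higher and 20.5% in either direction. BPGM, which makes 2,3-bisphosphoglycerate, had a mean of 1.21, PGM1 of 0.59 and the pyruvate carrier subunit MPC2 of 0.62. The pyruvate dehydrogenase kinases were divided: PDK4 had 2.07, 1.86, 2.06 and 0.58 (limma adjusted p = 0.0164) and PDK3 a mean of 0.70, both called higher, while PDK2 was called lower at -0.47. PKM, the pyruvate kinase of most tissues, had a mean of 0.42 and did not pass (limma adjusted p = 0.0757). Of the 12 tested genes of the HIF machinery, HIF1AN, the asparaginyl hydroxylase of the alpha subunits, was the 1 gene called, lower, with -0.79, -0.78, -0.78 and -0.07 (limma adjusted p = 0.0466). VHL, EGLN2 and ARNT2 had means of -0.13, -0.04 and -0.22, and ARNT was at 0.62 with a limma adjusted p of 0.0533.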

How the data were processed

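RNA of 4 ErbB2-KD and 4 MUC4-KD arrays was measured against pooled control RNA. The authors hybridised the arrays and ran Agilent Feature Extraction 10.5, and deposited for each spot and channel the median intensity, its local background and a log10 ratio (Cy5 to Cy3). The series' value table holds the same log ratios and was not used. In R 4.3.3 with limma 3.58.1 outlier spots were dropped, normexp (offset 50) removed the background, loess normalised each array, and by the dyes in the labels each ratio was set as knockdown over control, both as labelled. The 43376 spots gave 41000 probes by averaging, of which 25398 had a symbol through their accession in the RefSeq table.

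Testing was limited to probes that were well above background on each of an experiment's 4 arrays in at least 1 of the channels, that of the knockdown or that of the control. Its mean was tested against 0 (lmFit, eBayes), with Benjamini-Hochberg adjustment over all tested probes. Steps were tested on simulated data. Between experiments, arrays of the same replicate number had deviations that correlated at -0.23 to -0.04, so the numbers were not taken as pairs. The members and lists were chosen with earlier results of these data known. All members are named by a fixed rule: array values for called members, the 3 largest means per direction, experiment and role, and members spanning over 2 log2 units. The number of arrays limits the precision.

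Alternatives were an offset of 10, the Feature Extraction log ratios, median centring, and no filter on dim probes or one on both channels. A dye term, slide as fixed term (duplicateCorrelation gave no estimate with 4 arrays), 1 fit over all 8 arrays and a Student's t-test on each probe were also run. Further ones were the mean of a gene's probes, and labelled MUC4-KD arrays 1 and 3 and arrays 2 and 4 averaged. Each array was left out in turn, and a block for the replicate number was used. Promoter windows, with their sequence and coordinates, were taken from RefSeq (GRCh38.p14). Probes were not placed on a genome.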

Additional observations from a re-analysis of the deposited data

Results flagged for a closer look

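In 4 of 88 sets of 4 arrays (44 genes in 2 experiments), 1 array lay far from the others by Dixon's ratio, about what chance gives at 1 in 20. In ErbB2-KD these were ANKRD37 on array 1 (2.26, the others from -0.37 to 0.00) and DDIT4 on array 2 (-2.10, the others from -0.70 to -0.58). In labelled MUC4-KD they were PFKFB4 on array 4 (0.76, the others from 1.62 to 1.77) and P4HA1 on array 4 (0.86, the others from 2.11 to 2.37).

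The effects of the 2 experiments differed, by limma's test of the difference as labelled MUC4-KD minus ErbB2-KD, for 23 of 44 genes. Among the glycolytic enzymes the differences were 0.88 for GPI, 1.08 for TPI1, 1.01 for GAPDH, 0.86 for PGK1, 1.72 for ENO2 and 2.13 for LDHA. Those of the control genes were 1.77 for PFKFB4 and 1.20 for PDK1. Among the other targets they were 5.20 for ANGPTL4, 3.70 for BNIP3, 3.55 for LOX, 2.64 for DDIT4, 2.44 for NDRG1, 2.04 for P4HA1, 2.02 for ERO1A, 1.80 for BHLHE40, 1.71 for PLOD2, 1.60 for BNIP3L, 1.52 for EGLN1, 1.33 for INSIG2, 0.95 for ZNF395 and 0.80 for KDM3A. EPAS1 differed by -1.63. These signs rest on the labels of the MUC4-KD arrays, which the called MUC4 probes go against.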

How the results depend on the processing

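Of the 44 genes, 29 were called in labelled MUC4-KD. The count was 22 to 31 under the alternatives other than median centring (0) and the t-test on each probe (2). Over all tested probes the main fit called 5131 of 25047. The 22 genes came with no filter on dim probes, where 2930 of 41000 probes were called. The 31 came with slide as fixed term, where 9564 of 25047 were called. Median centring called 1 probe of all tested and the t-test 106. With 1 array left out the count of genes was 4 to 30. The calls over all tested probes moved as well, from 155 to 9622 with 1 array left out. In ErbB2-KD the count was 2 in the main fit, with 342 of all tested probes called. It became 1 with an offset of 10 (372 probes), the Feature Extraction log ratios (486), no filter on dim probes (50) and a dye term (190). It was 0 with median centring (31) and with the t-test on each probe (0), and 4 with 1 fit over all 8 arrays (1152). With 1 array left out it was 0 to 1, and 0 to 477 of all tested probes were called. For the difference the count of 23 became 3 with median centring and 9 with the t-test on each probe, and 13 to 25 with 1 array left out. Over all tested probes the difference was called for 117, for 546 and for 634 to 5189 in these settings. With the replicate number as a replicate block the count was 11, with 584 of all tested probes called. The numbers are not pairs. With the labelled MUC4-KD sign turned, an alternative chosen after seeing the data, the count was 21, with 4433 of all tested probes called. Apart from that turned sign, no called member changed sign under any alternative run.

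Median centring moved the median of the glycolytic enzymes in labelled MUC4-KD from 0.50 to 0.71 and that of the other targets from 1.16 to 1.32. The glycolytic median in ErbB2-KD ran from -0.050 to 0.072 with 1 array left out, so its sign is not settled. Leaving out both ErbB2-KD arrays of slide 1, chosen after seeing the data, gave 0.02 for the enzymes and -0.49 for the other targets. The causes were not tested. With 4 arrays and 1 pooled control each, a change that misses the threshold is not shown to be absent.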
